A study of Lolium arundinaceum with 18 samples.

Results

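Leaves of tall fescue (Festuca arundinacea) sprayed with silicon nanoparticles (Si NPs) were compared directly with leaves sprayed with cellulose nanocrystals (CNCs), with no drought in either group. The comparison takes 6 of the 18 RNA libraries of the series, chosen by their labels alone: 3 of group Si NPs, the reference, and 3 of group CNCs. Both groups were grown at 30 seedlings per pot, held at 65 to 75% of field capacity and sampled as leaves on day 20. Si NPs were sprayed at 300 mg/L and CNCs at 100 mg/L, each with 0.05% Tween-20 as surfactant, so the material and its dose cannot be told apart. CK, the watered control sprayed with double-distilled water (3 libraries), is given beside both. The droughted plants of the same particles, DS_Si NPs and DS_CNCs (3 libraries each), were held at 35 to 45% of field capacity and serve as a second, separate comparison of the particles. DS, the group under the same drought without a particle (3 libraries), is part of the fit of all 18 libraries. The sources used here do not say how many plants or pots went into a library, so the p-values measure the spread between these libraries, which may be technical.

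Grasses take up silicon as silicic acid and deposit it as solid silica in leaf epidermis and cell walls, whereas cellulose is the load-bearing polymer of the wall itself. Fragments of plant wall polymers are also known as danger signals that receptor kinases at the cell surface detect. Fescue leaves store carbon as fructans, polymers that fructosyltransferases build from sucrose and fructan exohydrolases take apart. In the chloroplast, antenna proteins carry the chlorophyll that feeds light energy to the photosystems, and Rubisco fixes the carbon.

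Transcripts were assembled without a genome, and each assembled gene is called a unigene and named here by its best protein match and its identifier. Levels are in TPM, an abundance corrected for transcript length and scaled to the same total in every library, and log2 differences are CNCs minus Si NPs on TMM-scaled counts unless TPM is named. Estimated counts summed to 21560499, 16257752 and 16175624 in Si NPs 1 to 3 and to 18882346, 19896402 and 17347129 in CNCs 1 to 3. The 10 most counted unigenes took 12.7 to 16.3% of the counts in Si NPs, 6.25 to 7.30% in CNCs and 8.42 to 10.9% in CK. Correlations of log2 CPM (counts scaled to the same total, without the correction for length) were 0.865 to 0.892 within Si NPs, 0.906 to 0.915 within CNCs and 0.830 to 0.895 between them. Si NPs 1 correlated with the CNCs libraries at 0.891 to 0.895, against 0.870 and 0.892 with Si NPs 2 and 3. CK 3 correlated at 0.947 and 0.948 with CK 1 and CK 2, which reached 0.863 with each other. Of 51110 tested unigenes with 3 distinct CK values, CK 3 held the middle one in 65.0%, against 16.9% for CK 1 and 18.2% for CK 2, and whether CK 3 shares material with them was not tested. Where CK 3 sets an end of a CK range, the range without it is given too. The median unigene differed by 0.04 in log2 (CNCs minus Si NPs) after TMM (trimmed mean of M-values), the scaling of counts used in the test, and by 0.34 on log2(TPM + 0.5), with a median shift of 0.33 from one scale to the other in a single unigene. Medians of gene groups are therefore given relative to that of all tested unigenes, on TMM-scaled counts and, where a second value stands beside it, on TPM. Plain log2 medians are given for mixed-linkage beta-glucanases, phenylalanine ammonia-lyases, fructosyltransferases and the comparison with drought, unless above or below is said. Of 44 lists with at least 20 tested unigenes, 3 had opposite signs on the scales: pectin-modifying enzymes, class III peroxidases, and chlorophyll breakdown and senescence. Markers of leaf mesophyll were abundant in all 6 libraries, with antenna proteins summing to 19480 to 40240 TPM and the Calvin cycle with Rubisco to 20760 to 52080, against 49.4 to 97.7 for root markers. Stomatal markers (5 unigenes) summed to 19.3 to 30.2 TPM in Si NPs and 38.1 to 45.7 in CNCs (median 0.87 above that of all unigenes, 0.17 on TPM). Cell division and histone unigenes (202) summed to 4937 to 5197 TPM in Si NPs and 6539 to 7331 in CNCs. Their median nevertheless lay close to that of all unigenes, 0.06 above it (0.03 on TPM). No description matched the words used for fungal, insect or mite proteins, and 3 matched those for viral proteins. The part of tissue make-up in the differences below was not tested, and in such bulk samples fewer cells of a type and less RNA per cell cannot be told apart.

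Few single unigenes separated the particles at the study's thresholds. Of 55979 unigenes tested, 23 (0.0411%) were called, which means that their log2 difference exceeded 2 in size with p below 0.05 after Benjamini-Hochberg adjustment, when edgeR's quasi-likelihood model held all 18 libraries. Of these, 11 (0.0197%) were higher and 12 (0.0214%) lower in CNCs than in Si NPs. A description was attached to 17 of them and a named product to 10. All 23 had the 3 libraries of one particle above the 3 of the other in TPM, as did 28.3% of all tested unigenes (24.1% with CNCs above and 4.27% with Si NPs above). The CK mean lay between the means of the particles for 19 of the 23, beyond Si NPs for 3 and beyond CNCs for 1, with the same numbers when CK 3 was left out of the mean. Without a requirement on size, 181 unigenes (0.323%) had an adjusted p below 0.05, 18 (0.0322%) higher and 163 (0.291%) lower in CNCs. On TPM, limma turned that balance to 68 higher and 12 lower, and at the size threshold to 62 higher and 8 lower. With only the 6 libraries of the comparison in the fit, 222 of 41517 unigenes (0.535%) were called, 117 (0.282%) higher and 105 (0.253%) lower in CNCs, and 20 of the 23 were among them. DESeq2 called 472 of 42752 (1.1%), 229 (0.536%) higher and 243 (0.568%) lower in CNCs, including 21 of the 23. Before adjustment, 2891 unigenes were higher and 3325 lower in CNCs with a p below 0.05 in edgeR (5.16 and 5.94% of those tested). The count rests on every one of the 6 libraries: leaving out Si NPs 1, 2 or 3 in turn gave 3, 0 and 1 calls, and leaving out CNCs 1, 2 or 3 gave 1, 0 and 1. It was also 0 without CK 3, which is in neither group of the comparison, and 9 to 49 without any 1 of the other 11 libraries. Whether CK 3 acts through the filter on low counts, the scaling or the shared estimate of the spread was not tested. At most 1 of the 23 was still called without any 1 of the 6 libraries or without CK 3. In the fit of 6 libraries the count was 30 without Si NPs 1 and 0 to 2 without any other. Every one of the 23 kept its direction in all of these fits. Below, a count of 0 called refers to edgeR with all 18 libraries.

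**Figure D1:**
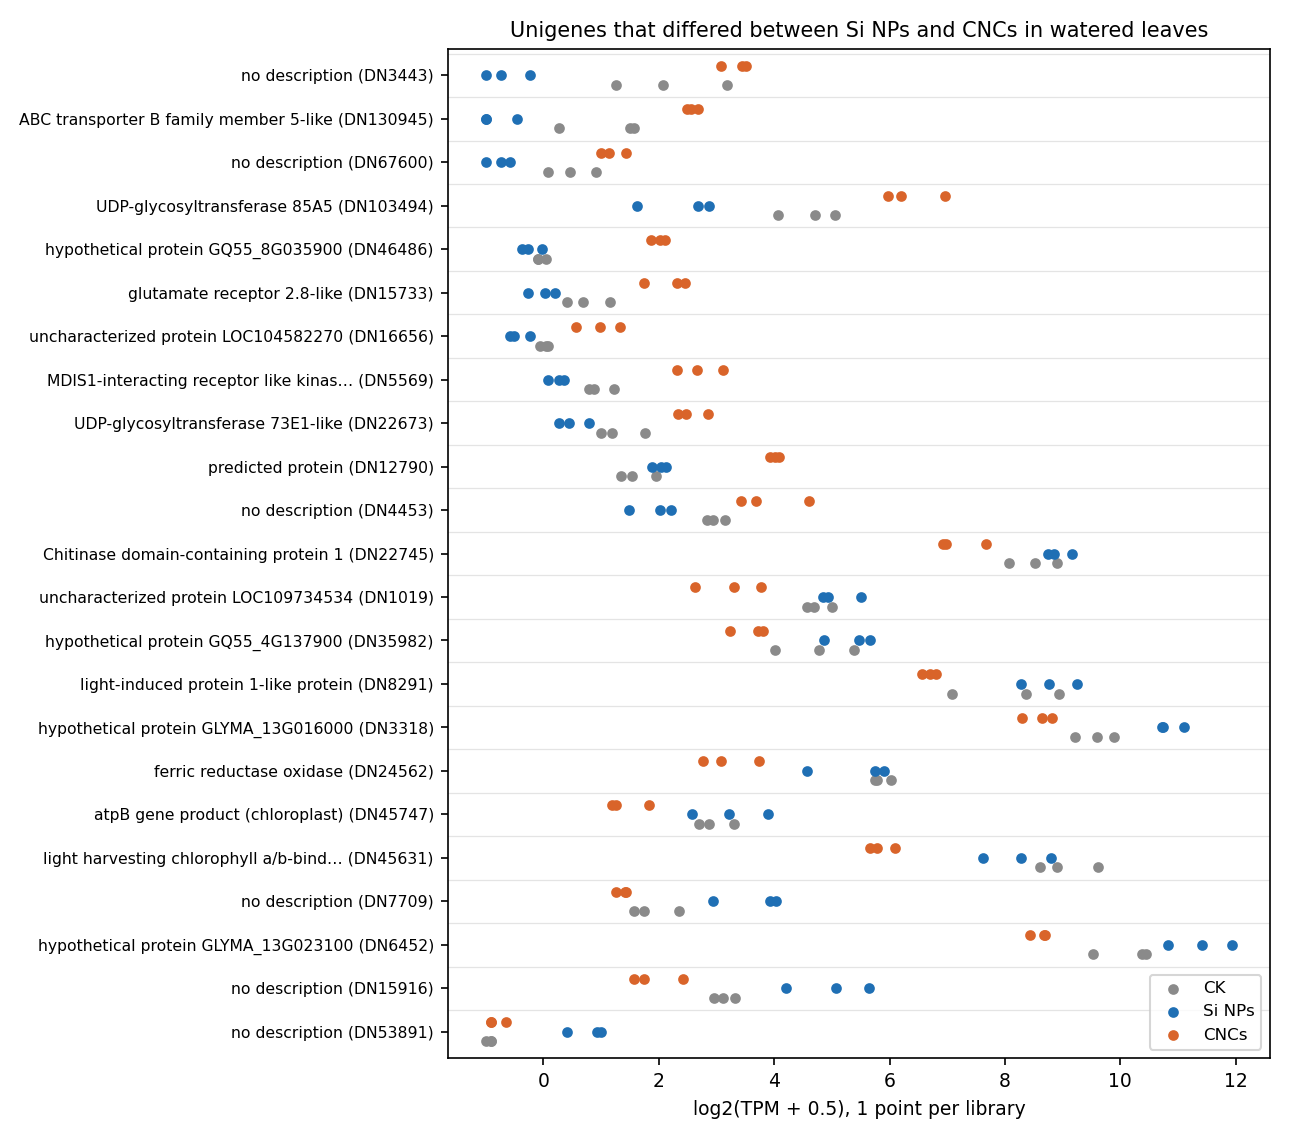
Level of each of the 23 called unigenes, as log2(TPM + 0.5) with 1 point per library, in CK (grey), Si NPs (blue) and CNCs (orange), ordered by the fitted log2 difference. In every row the 3 Si NPs points and the 3 CNCs points do not overlap, and in 19 of 23 rows the mean of CK lies between theirs. The rows were chosen for a wide gap between Si NPs and CNCs.

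The chloroplast supplied the clearest shared pattern among the lower unigenes. Of the 158 described unigenes with an adjusted p below 0.05 and a lower level in CNCs, 42 (26.6%) had a description that names the chloroplast, thylakoid, plastid or a photosystem, against 1512 of all 29692 described unigenes tested (5.09%) and 0 of the 14 described unigenes higher in CNCs. An Lhcb1 fragment (DN45631_c0_g1), which binds chlorophyll in the main antenna of photosystem II, was at 197, 311 and 443 TPM in Si NPs 1 to 3 and at 67.7, 50.1 and 54.4 TPM in CNCs 1 to 3. All 3 CNCs libraries lay far below the lowest Si NPs library, and CK lay above both groups on average, at 387 to 780 TPM. Its log2 difference was -2.78 (standard error 0.49, edgeR adjusted p = 0.0362). Summed over the 4 unigenes with this description the difference was -1.16 (adjusted p = 0.131) and did not pass.

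Abundant antenna proteins differed by less but with little spread. Chlorophyll a-b binding protein 4 (DN2319_c0_g1), an antenna protein of photosystem I, was at 4264, 5818 and 5546 TPM in Si NPs and 2686, 3158 and 3196 TPM in CNCs. The groups did not overlap, and the log2 difference was -1.05 (standard error 0.17, edgeR adjusted p = 0.0298), under the size threshold. Chlorophyll a-b binding protein 8 (DN3931_c0_g1) was at 3252, 3765 and 4017 TPM in Si NPs against 2281, 2211 and 2632 TPM in CNCs, again without overlap (-0.96, standard error 0.18, edgeR adjusted p = 0.0395). The type III protein of the photosystem II antenna (DN2094_c0_g2) overlapped between the groups, at 2933 to 4101 TPM in Si NPs and 1823 to 3141 in CNCs (edgeR adjusted p = 0.278). Over the whole group, 1 of 52 tested antenna unigenes was called lower and 0 higher in CNCs, 30 were lower and 0 higher at an unadjusted p below 0.05, and 49 of 52 lay below 0. Their median was 1.25 below that of all unigenes in log2 of TMM-scaled counts and 1.13 below it on TPM. In 34 of 52 (65.4%) all Si NPs libraries lay above all CNCs libraries in TMM-scaled CPM, against 10.8% of all tested unigenes. Summed antenna TPM was 31420, 35460 and 40240 in Si NPs 1 to 3, 20300, 19480 and 23380 in CNCs 1 to 3, and 34150 to 55190 in CK.

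Subunits of the chloroplast ATP synthase, of cytochrome b6f and of both photosystems, which turn light into ATP and reducing power, lay on the same side. Of the 51 tested, edgeR called 0 and DESeq2 4, all lower in CNCs, 9 had an adjusted p below 0.05 with a lower level in CNCs, and 47 lay below 0 (median 1.00 below that of all unigenes on TMM-scaled counts, 0.90 on TPM). Their summed TPM was 30460 ± 1544 (SD, n = 3) in CNCs, below Si NPs at 46980 ± 1848, with CK at 36850 to 47940. An unadjusted p below 0.05 was reached by 35 lower and 1 higher. Plastocyanin (DN8923_c0_g1), the copper protein that carries electrons between cytochrome b6f and photosystem I, was at 5628, 4657 and 5264 TPM in Si NPs and 4107, 3318 and 3648 TPM in CNCs, without overlap but short of the threshold in edgeR (-1.02, standard error 0.25, adjusted p = 0.106). Calvin cycle and Rubisco unigenes (22 tested, 0 called by edgeR and 0 by DESeq2, 18 below 0, 10 lower and 1 higher at an unadjusted p below 0.05) had a median 0.76 below that of all unigenes (0.75 on TPM). The dominant Rubisco small chain (DN24433_c0_g1) was at 40200, 16970 and 32510 TPM in Si NPs and 20610, 15170 and 13360 TPM in CNCs. Those groups overlapped, because Si NPs 2 was lower than CNCs 1 (edgeR adjusted p = 0.386). A second Rubisco small subunit unigene (DN22657_c0_g2) did not overlap, at 1972, 2047 and 1808 TPM against 968, 456 and 489 TPM, and was called in the fit of 6 libraries (-2.09, standard error 0.30, edgeR adjusted p = 0.0297) but not in the fit of all 18 (adjusted p = 0.103).

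Enzymes of chlorophyll biosynthesis (23 tested, 0 called, 19 below 0, 9 lower and 0 higher at an unadjusted p below 0.05) had a median 0.52 below that of all unigenes on both scales. In 56.5% of them all Si NPs libraries lay above all CNCs libraries in TMM-scaled CPM, against 10.8% of all tested unigenes. The summed TPM of these enzymes was nevertheless close, at 1590 ± 93.1 (SD, n = 3) in CNCs against 1659 ± 81.8 in Si NPs. Plastid ribosomal proteins, which translate the chloroplast's own genes, had a median 0.61 below that of all unigenes (0.58 on TPM, 50 tested, 0 called, 24 lower and 0 higher at an unadjusted p below 0.05). For cytosolic ribosomal proteins it lay 0.31 below (0.205 on TPM, 116 tested, 0 called, 97 below 0, 5 lower and 2 higher at an unadjusted p below 0.05). The summed TPM of the cytosolic ones overlapped, at 13460 to 17080 in Si NPs and 15340 to 17810 in CNCs. In photorespiration, the pathway that recovers carbon after Rubisco reacts with oxygen, the median lay 0.04 below that of all unigenes (32 tested, 0 called). At an unadjusted p below 0.05, 5 were lower and 0 higher in CNCs. Summed TPM was 1980 ± 167 (SD, n = 3) in CNCs against 2740 ± 9.18 in Si NPs. The most abundant member of this group, a glycine decarboxylase subunit (DN12387_c0_g1), was at 1263, 1237 and 1229 TPM in Si NPs and 769, 677 and 580 TPM in CNCs. The groups were well apart, but the difference did not pass in edgeR (-1.25, standard error 0.34, adjusted p = 0.147). A serine hydroxymethyltransferase (DN1668_c0_g1) was lower in CNCs with an edgeR adjusted p of 0.0415 (-0.71, standard error 0.14), under the size threshold.

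Transcripts of the chloroplast's own genome, a group drawn up after the values were seen, were among the lower unigenes too. The ATP synthase beta subunit gene atpB (DN45747_c0_g2) was at 5.47, 8.75 and 14.4 TPM in Si NPs and 1.90, 3.06 and 1.77 TPM in CNCs. No CNCs library reached the lowest Si NPs library, and the log2 difference was -2.69 (standard error 0.48, edgeR adjusted p = 0.0368). The lowest adjusted p of the whole comparison belonged to ndhD (DN34300_c1_g1), a subunit of the chloroplast NADH dehydrogenase-like complex, at 35.1, 49.4 and 45.8 TPM in Si NPs and 23.5, 19.2 and 14.3 TPM in CNCs. It did not overlap and differed by -1.51 (standard error 0.18, edgeR adjusted p = 0.00778), under the size threshold. Maturase K (DN102754_c0_g1), which helps splice chloroplast introns, was at 63.3, 147 and 185 TPM against 22.2, 23.9 and 25.5 TPM, called in the fit of 6 libraries (edgeR adjusted p = 0.0236) but not of all 18 (adjusted p = 0.0718). Of 37 such unigenes, 1 was called lower, 0 higher and 30 lay below 0, with a median 1.86 below that of all unigenes (1.48 on TPM). Their summed TPM was 244, 534 and 662 in Si NPs 1 to 3 against 185, 121 and 144 in CNCs and 220 to 391 in CK (237 to 391 without CK 3), so Si NPs 1 stood nearest to CNCs. Library RNA was captured by its poly(A) tails, and the part of this capture in the levels of chloroplast transcripts was not tested.

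**Figure D2:**
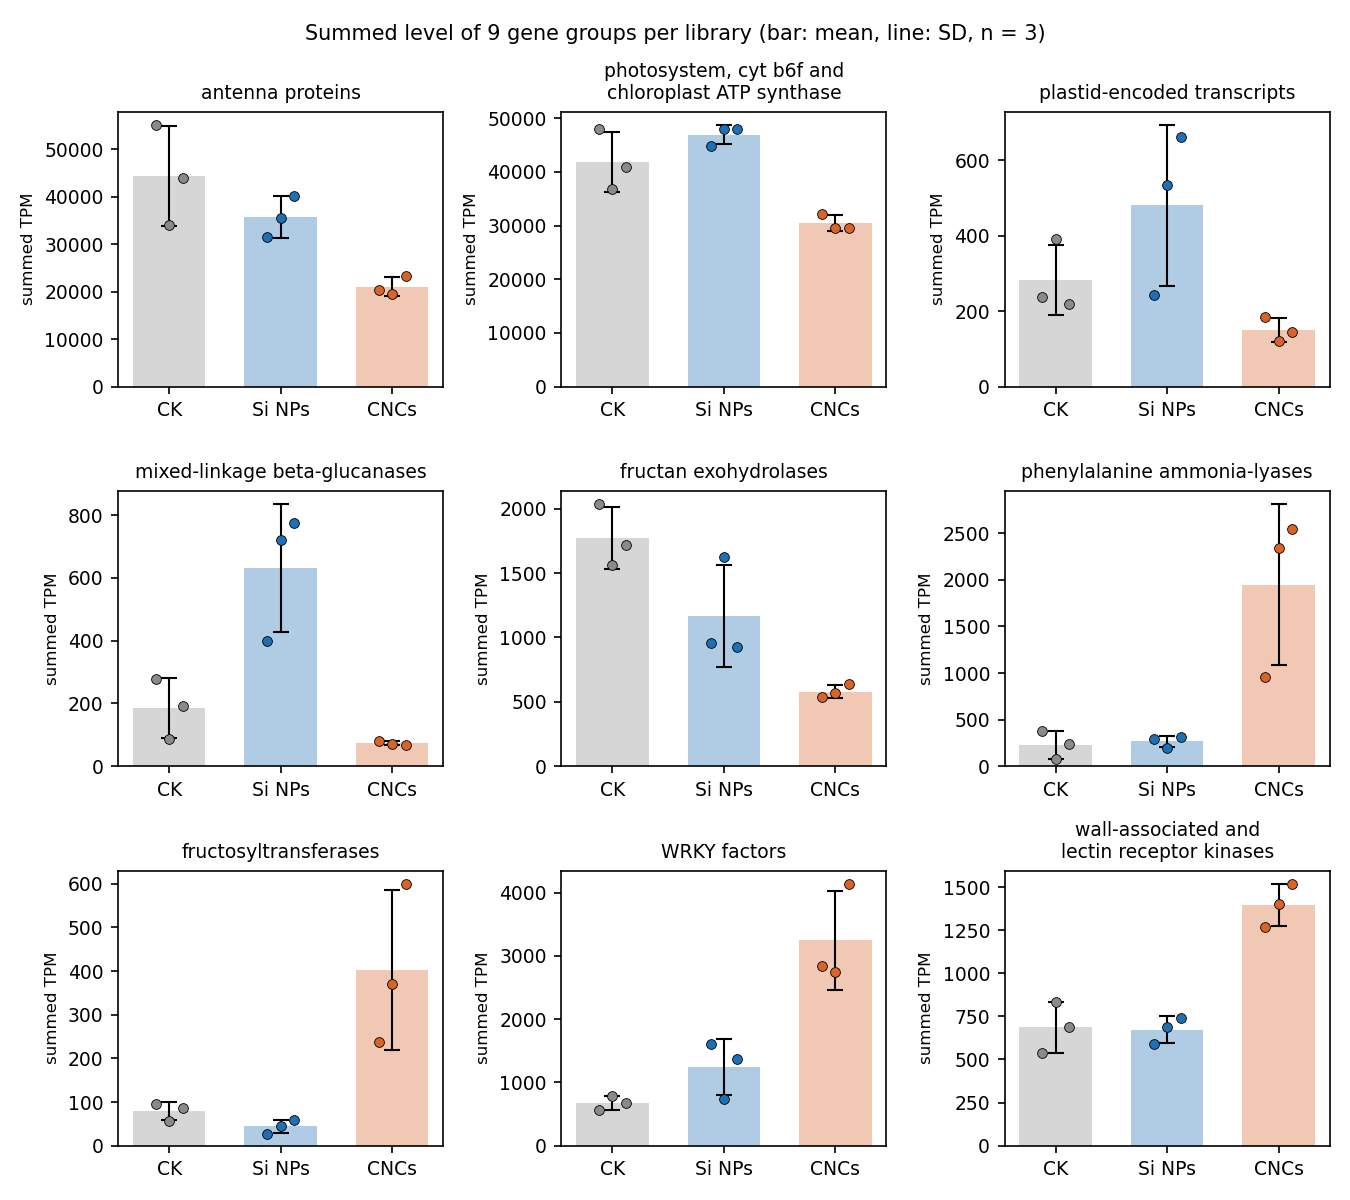
Summed TPM of 9 gene groups in each library of CK, Si NPs and CNCs (points), with the mean (bar) and SD (line) of 3 libraries. Antenna, photosystem, plastid-encoded, beta-glucanase and fructan exohydrolase sums are lower in every CNCs library than in any Si NPs library, and the other 4 groups are higher in every CNCs library.

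A small group of wall enzymes, the mixed-linkage beta-glucanases, was lower in every CNCs library than in any Si NPs library, while the wider groups of wall enzymes differed little in their medians. Mixed-linkage beta-glucanases (lichenases) cut the (1-3, 1-4)-beta-glucan that is abundant in grass cell walls. The (1-3, 1-4)-beta-glucanase DN8000_c0_g1 was at 172, 363 and 363 TPM in Si NPs and 29.4, 41.5 and 33.8 TPM in CNCs, with CK at 32.3 to 99.6. Every Si NPs library exceeded every CNCs and CK library, and the log2 difference was -3.65 (standard error 0.32) in the fit of 6 libraries, where it was called (edgeR adjusted p = 0.0157), while the fit of all 18 gave an adjusted p of 0.0579. A second one, DN26148_c0_g1, was at 141, 180 and 283 TPM against 20.4, 15.3 and 22.8 TPM, a difference of -3.73 (standard error 0.32) called in the fit of 6 libraries (edgeR adjusted p = 0.0157) and not in the fit of all 18 (adjusted p = 0.117). All 6 tested unigenes of this group, also drawn up after the values were seen, lay below 0 (median -3.49), 0 were called with all 18 libraries, 3 with the 6 and 5 by DESeq2, and 5 had an unadjusted p below 0.05. Together they summed to 399, 720 and 776 TPM in Si NPs, 80.2, 70.1 and 68.2 in CNCs and 87.2 to 279 in CK.

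A cell wall invertase (DN45583_c0_g1), which splits sucrose outside the cell, was at 244, 334 and 253 TPM in Si NPs and 74.8, 77.7 and 89.6 TPM in CNCs, with CK at 303 to 473. The CNCs libraries lay below all Si NPs and CK libraries, and the difference of -2.12 (standard error 0.13) was called in the fit of 6 libraries (edgeR adjusted p = 0.0157) but not of all 18 (adjusted p = 0.192). Of 28 tested fructan exohydrolases, a group drawn up after the values were seen, edgeR called 0 and DESeq2 2, both lower in CNCs, 18 lay below 0 and 10 above, and 6 were lower and 3 higher at an unadjusted p below 0.05. Their median lay 0.70 below that of all unigenes (0.52 on TPM). They summed to 955, 1623 and 922 TPM in Si NPs and 537, 566 and 636 TPM in CNCs, both below most CK values (1560 to 2036). Beta-glucosidase 5-like isoform X1 (DN6784_c0_g1) was at 939, 784 and 1648 TPM in Si NPs and 465, 367 and 444 TPM in CNCs, without overlap (-1.73, standard error 0.60, edgeR adjusted p = 0.280). Across the whole group of endoglucanases and beta-glucosidases (60 tested, 0 called) the median lay 0.17 below that of all unigenes, with 2 higher and 5 lower at an unadjusted p below 0.05. Across expansins and xyloglucan endotransglucosylases (24 tested, 0 called), which loosen walls during growth, it lay 0.31 below (0.25 on TPM), with 1 higher and 2 lower.

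Other called unigenes lower in CNCs had varied roles. A ferric reductase oxidase (DN24562_c1_g1), of the enzymes that reduce ferric iron at membranes before uptake, was at 23.4, 53.5 and 59.0 TPM in Si NPs and 7.98, 6.33 and 12.8 TPM in CNCs, with CK at 52.9 to 64.9. CNCs stood apart below both other groups, and the difference was -2.62 (standard error 0.42, edgeR adjusted p = 0.0271), against -1.98 (adjusted p = 0.0634) over the 4 unigenes of that description. In the wider ferric reductase group (21 tested, drawn up after the values were seen) 1 was called lower and 0 higher, and the median lay near that of all unigenes, 0.15 below it (0.27 on TPM). At an unadjusted p below 0.05 in edgeR, 5 were lower and 0 higher. All Si NPs libraries lay above all CNCs libraries in TMM-scaled CPM in 33.3%, against 10.8% of all tested unigenes. The other way lay 9.52%, against 13.0%. DN8291_c0_g1, matched to light-induced protein 1-like, stood at 312, 605 and 434 TPM in Si NPs and 93.6, 112 and 103 TPM in CNCs, and CK, at 135 to 490 TPM, overlapped with Si NPs and lay above CNCs. The difference was -2.56 (standard error 0.47, edgeR adjusted p = 0.0392). Chitinase domain-containing protein 1 (DN22745_c0_g1) was at 463, 428 and 575 TPM in Si NPs and 203, 126 and 120 TPM in CNCs, without overlap (-2.03, standard error 0.40, edgeR adjusted p = 0.0455). Among chitinases, thaumatin-like proteins, PR-1 and beta-1,3-glucanases it was the 1 called of 83, and their median lay 0.07 above that of all unigenes.

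Some of the most abundant called transcripts have no known product. DN6452_c0_g1, matched to a hypothetical soybean protein, was at 1824, 2724 and 3937 TPM in Si NPs and 415, 409 and 343 TPM in CNCs. CNCs libraries varied little around their mean, CK lay between at 735 to 1399 (1324 to 1399 without CK 3), and the difference was -3.19 (standard error 0.63, edgeR adjusted p = 0.0455). DN3318_c0_g1, also matched to a hypothetical soybean protein, was at 1695, 1712 and 2190 TPM against 448, 397 and 314 TPM (-2.58, standard error 0.45, edgeR adjusted p = 0.0362). Uncharacterized DN1019_c0_g1 (-2.06) and DN35982_c1_g1 (-2.22) and the undescribed DN53891_c0_g2 (-4.67), DN15916_c0_g1 (-3.65) and DN7709_c0_g1 (-3.06) complete the 12 lower ones.

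Glycosyltransferases and surface receptors led the named unigenes that were higher in CNCs. UDP-glycosyltransferase 85A5 (DN103494_c0_g2), of the enzymes that attach sugars to hormones and defence compounds, was at 5.92, 2.56 and 6.81 TPM in Si NPs and 62.3, 73.2 and 124 TPM in CNCs. CK lay between without touching either group, at 16.2 to 32.9 TPM, and the log2 difference was 3.74 (standard error 0.65, edgeR adjusted p = 0.0362). Summed over the 2 unigenes of that name it was 3.07 and still passed (adjusted p = 0.0389). UDP-glycosyltransferase 73E1-like (DN22673_c0_g1) was at 1.22, 0.86 and 0.70 TPM against 4.55, 5.05 and 6.69 TPM, without overlap (2.25, standard error 0.44, edgeR adjusted p = 0.0443). Summed over the 9 unigenes of that name the difference was 0.38 (adjusted p = 0.566). Of 113 tested UDP-glycosyltransferases, 2 were called higher and 0 lower, 88 lay above 0, and the median was 0.42 above that of all unigenes (0.51 on TPM). Their sum was 621, 506 and 562 TPM in Si NPs, 1067, 1055 and 1460 TPM in CNCs and 572 to 598 in CK (593 to 598 without CK 3).

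A glutamate receptor 2.8-like unigene (DN15733_c0_g1), of the calcium channels that respond to amino acids and wounding, was at 0.65, 0.33 and 0.52 TPM in Si NPs and 2.85, 4.97 and 4.47 TPM in CNCs. No library of one group reached the other, and the difference was 2.66 (standard error 0.45, edgeR adjusted p = 0.0322). MDIS1-interacting receptor like kinase 2 (DN5569_c0_g1), known in Arabidopsis as a receptor in immunity and wall sensing, was at 0.78, 0.71 and 0.55 TPM against 5.85, 8.18 and 4.45 TPM (2.45, standard error 0.48, edgeR adjusted p = 0.0455). ABC transporter B family member 5-like (DN130945_c0_g1) was listed at 0, 0 and 0.23 TPM in Si NPs and 5.13, 5.93 and 5.37 TPM in CNCs (edgeR adjusted p = 0.0418). Si NPs held 1 count of it in all, so the ratio of 59.3 has a 95% counting interval from 10.3 to 2368. Summed over unigenes of the same description, none of these passed. The glutamate receptor (2 unigenes) differed by 2.29 (edgeR adjusted p = 0.0518). MDIS1-interacting receptor like kinase 2 (5 unigenes) differed by 2.53 (adjusted p = 0.0551), and the ABC transporter (4 unigenes) by 1.66 (adjusted p = 0.14). A predicted protein (DN12790_c0_g1) was at 3.18, 3.84 and 3.60 TPM against 15.7, 14.7 and 16.4 TPM, with little spread in either group (2.17, edgeR adjusted p = 0.0414). The other called ones were the unnamed proteins DN46486_c0_g1 (2.99) and DN16656_c0_g1 (2.49) and the undescribed DN3443_c0_g1 (5.62), DN4453_c0_g3 (2.07) and DN67600_c0_g1 (ratio 17.9, 95% counting interval 4.69 to 151).

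Wall-associated and lectin receptor kinases, which span the membrane and bind wall pectin or carbohydrates, lay toward CNCs as a group. Of 181 tested, 0 were called in the fit of all libraries, 8 higher and 0 lower in the fit of 6 and 14 higher and 0 lower by DESeq2, and 140 lay above 0. At an unadjusted p below 0.05 in edgeR, 46 were higher and 2 lower. Their median was 0.82 above that of all unigenes (0.65 on TPM), and in 77 (42.5%) all CNCs libraries lay above all Si NPs libraries in TMM-scaled CPM, against 13.0% of all tested unigenes. The sum was 589, 689 and 741 TPM in Si NPs, 1269, 1404 and 1516 TPM in CNCs and 536 to 831 in CK. A wall associated kinase (DN24751_c0_g1) was at 3.80, 4.25 and 4.52 TPM in Si NPs and 19.5, 26.4 and 18.2 TPM in CNCs. Both groups lay above CK (1.09 to 1.35 TPM, or to 1.21 without CK 3), and the difference of 2.09 (standard error 0.19) was called in the fit of 6 libraries (edgeR adjusted p = 0.0157) but not of all 18 (adjusted p = 0.128). Not every member lay that way: wall-associated receptor kinase-like 14 (DN22284_c2_g1) was at 16.4, 23.2 and 18.6 TPM in Si NPs and 6.56, 6.38 and 7.24 TPM in CNCs (-1.91, standard error 0.37, edgeR adjusted p = 0.0440), under the size threshold.

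Receptor kinase-like protein Xa21 (DN142_c0_g2), named after a rice receptor of bacterial peptides, was at 15.6, 23.7 and 22.3 TPM in Si NPs and 116, 121 and 55.4 TPM in CNCs. CK spread over both groups, from 11.3 to 172 TPM, and the unigene was called in the fit of 6 libraries (2.19, edgeR adjusted p = 0.0157) and far from it in the fit of all 18 (adjusted p = 0.472). Among 407 tested NBS-LRR immune receptors, which detect pathogen proteins inside the cell, 0 were called by edgeR and 3 by DESeq2, 33 were higher and 11 lower at an unadjusted p below 0.05, and 278 lay above 0 (median 0.41 above that of all unigenes, 0.29 on TPM). The most abundant one, disease resistance protein RPM1 (DN1902_c0_g1), lay the other way, at 529, 378 and 472 TPM in Si NPs and 201, 258 and 207 TPM in CNCs (-1.57, standard error 0.31, edgeR adjusted p = 0.0455), under the size threshold.

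**Figure D3:**
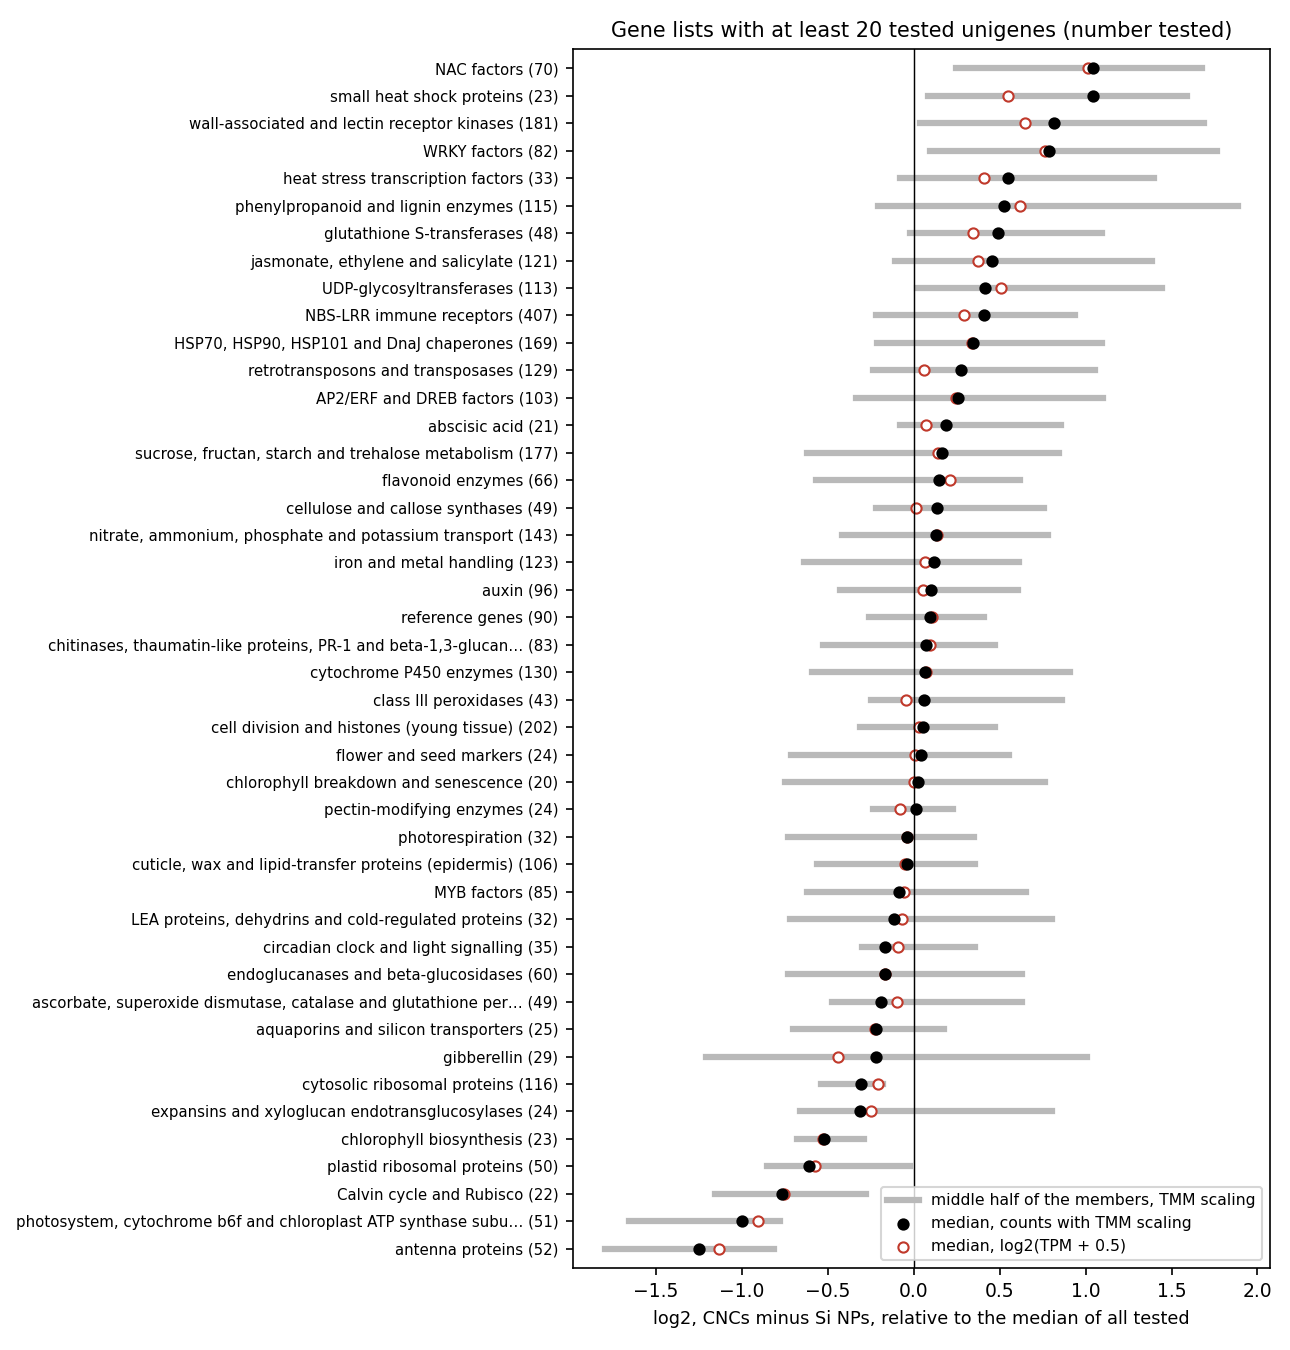
Median log2 difference (CNCs minus Si NPs) of the 44 gene lists with at least 20 tested unigenes, without the groups drawn up after the values were seen, relative to the median of all tested unigenes, on counts with TMM scaling (filled points, with the range from the lower to the upper quartile of the members as a grey bar) and on log2(TPM + 0.5) (open points). Of the lists plotted, NAC factors and small heat shock proteins (both 1.04) lie highest and antenna proteins (-1.25) lowest, with 31 of 44 between -0.3 and 0.5.

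Transcription factors of the NAC and WRKY families, which switch on defence, stress and senescence genes, lay toward CNCs with much spread between libraries. For WRKY factors, edgeR called 0 of 82 with all libraries and 4 higher with the 6, DESeq2 3 higher, 9 were higher and 0 lower at an unadjusted p below 0.05, 67 lay above 0, and the median was 0.79 above that of all unigenes (0.76 on TPM). They summed to 1611, 744 and 1367 TPM in Si NPs, 2847, 2746 and 4145 TPM in CNCs and 558 to 789 in CK. For NAC factors, edgeR and DESeq2 called 0 of 70, the fit of 6 libraries 1 higher, 13 were higher and 3 lower at an unadjusted p below 0.05, 60 lay above 0, and the median was 1.04 above (1.01 on TPM), with sums of 948, 541 and 762 TPM against 2248, 1352 and 2583 TPM. WRKY transcription factor 6-like (DN3149_c0_g1) was at 6.01, 7.81 and 5.51 TPM in Si NPs and 24.6, 24.8 and 35.1 TPM in CNCs, called in the fit of 6 libraries (2.05, edgeR adjusted p = 0.0157) and not of all 18 (adjusted p = 0.154). The most abundant NAC unigene, NAC domain-containing protein 67-like (DN12114_c0_g1), was at 145, 35.1 and 89.3 TPM against 473, 191 and 623 TPM. Its groups did not overlap, yet the spread within each was wide and the difference did not pass (1.90, standard error 0.94, edgeR adjusted p = 0.477).

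Phenylalanine ammonia-lyase (PAL) opens the pathway from phenylalanine to lignin, flavonoids and salicylate. The 42 tested PAL unigenes, a group drawn up after the values were seen, summed to 295, 198 and 311 TPM in Si NPs, 958, 2339 and 2551 TPM in CNCs and 74.7 to 376 in CK. Si NPs overlapped with CK, and every CNCs library exceeded both, with CNCs 1 well below the other CNCs libraries. The median log2 difference was 2.43 (2.33 with groups at 0 counts set to a floor of 3 counts over the group), or 2.39 above that of all unigenes and 1.87 above it on TPM, 38 of 42 lay above 0, 0 were called with all 18 libraries, 3 with the 6 and 3 by DESeq2, and 17 were higher and 0 lower at an unadjusted p below 0.05. The most abundant one (DN2318_c0_g1) was at 48.7, 27.2 and 49.7 TPM against 137, 452 and 482 TPM (2.71, standard error 1.06, edgeR adjusted p = 0.347). The list of 115 phenylpropanoid and lignin enzymes holds these 42, and its median, 0.53 above that of all unigenes (0.62 on TPM), rests on them. The other 73 had 37 above and 36 below 0, a median 0.02 below that of all unigenes (0.03 above on TPM), and 12 higher and 6 lower at an unadjusted p below 0.05. Cinnamoyl-CoA reductase 1 (DN11965_c0_g1), the first step toward the lignin building blocks, lay lower in CNCs, at 79.5, 93.8 and 82.9 TPM against 134, 96.4 and 137 TPM in Si NPs (-0.89, standard error 0.13, edgeR adjusted p = 0.0260), under the size threshold. Another cinnamoyl CoA reductase unigene (DN7634_c0_g1) lay the other way, at 1.32, 2.30 and 1.76 TPM in Si NPs and 4.00, 3.26 and 4.64 TPM in CNCs, without overlap (0.65, edgeR adjusted p = 0.697).

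Fructosyltransferases, the enzymes that build fructan, lay higher in CNCs. The 19 tested ones, also a group drawn up after the values were seen, summed to 27.9, 46.1 and 58.4 TPM in Si NPs, 237, 371 and 600 TPM in CNCs and 57.2 to 95.7 in CK. Every CNCs library lay above every Si NPs and CK library. Their median log2 difference was 3.28 (3.32 with groups at 0 counts set to that floor, which applied to 4 of them), but 1.09 above that of all unigenes on log2(TPM + 0.5). With all 18 libraries 0 were called, with the 6 libraries 3 and by DESeq2 5, all higher in CNCs, and 11 had an unadjusted p below 0.05. A (sucrose/fructan) 6-fructosyltransferase (DN3100_c0_g1) was at 0.11, 0 and 1.24 TPM in Si NPs, 42.4, 45.7 and 73.9 TPM in CNCs and 0.09 to 6.32 in CK. It was called in the fit of 6 libraries (edgeR adjusted p = 0.0302) and not of all 18 (adjusted p = 0.212). Over all 177 unigenes of sucrose, fructan, starch and trehalose metabolism, 0 were called and the median lay 0.16 above that of all unigenes.

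**Figure D4:**
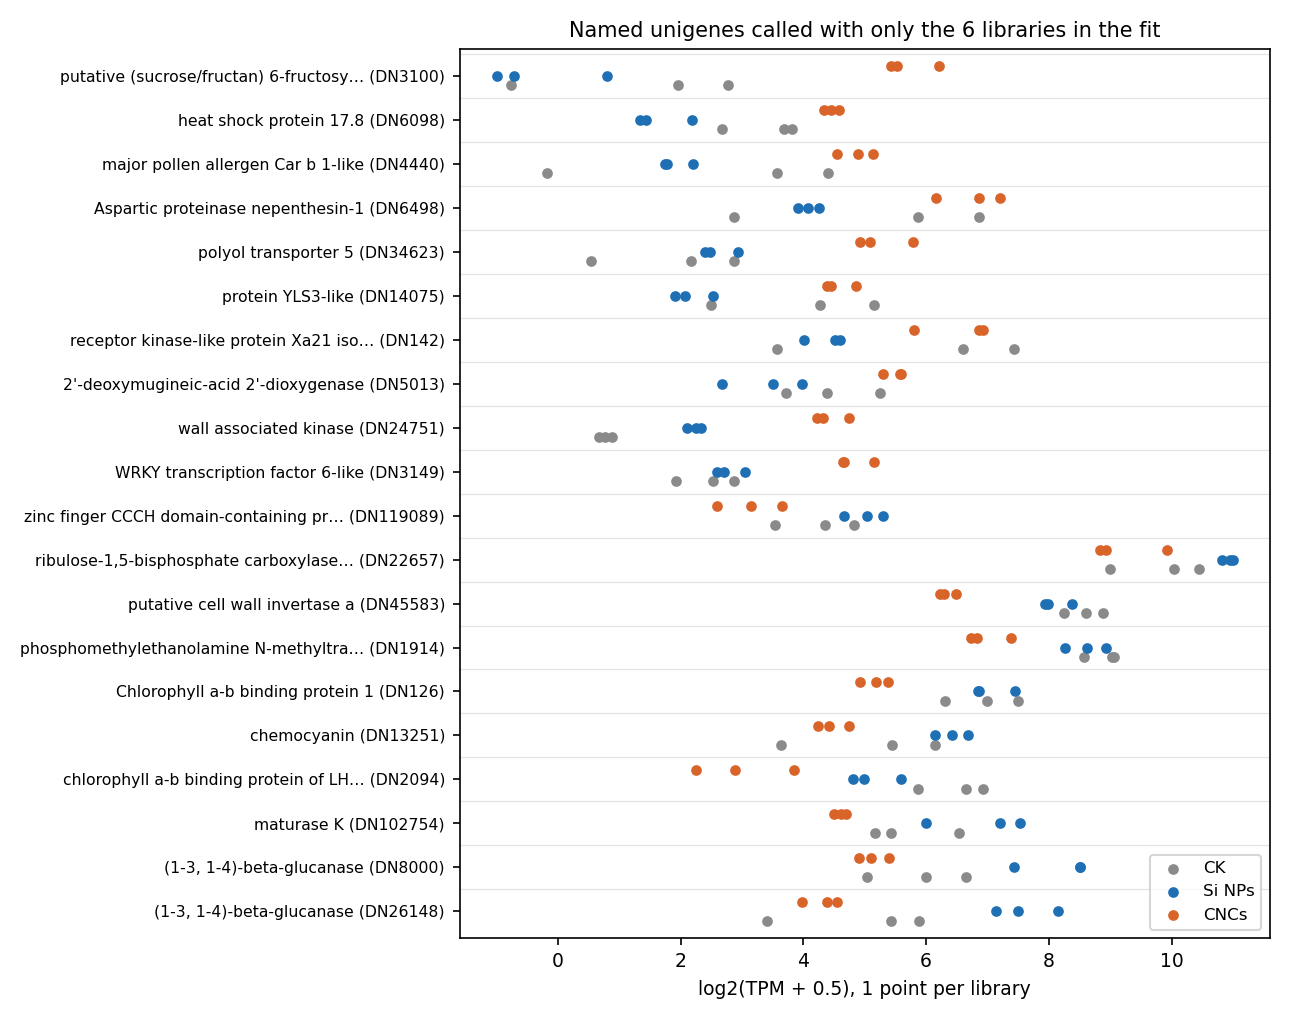
Level of the 20 named unigenes called only with the 6 Si NPs and CNCs libraries in the fit, as log2(TPM + 0.5) with 1 point per library, in CK (grey), Si NPs (blue) and CNCs (orange). Si NPs and CNCs points do not overlap in any row, a condition of the rule that named these unigenes, while the CK points are often spread widely.

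The remaining named unigenes of the fit of 6 libraries had other roles. Higher in CNCs were heat shock protein 17.8 (DN6098_c0_g1), a small chaperone that keeps unfolded proteins soluble, at 4.07, 2.22 and 2.04 TPM in Si NPs and 19.8, 21.3 and 23.5 TPM in CNCs (edgeR adjusted p = 0.0233, and 0.0935 in the fit of all 18), and 2'-deoxymugineic-acid 2'-dioxygenase (DN5013_c0_g1), an enzyme of the iron-binding phytosiderophores of grasses, at 5.87, 10.9 and 15.2 TPM against 47.6, 47.1 and 39.0 TPM. Aspartic proteinase nepenthesin-1 (DN6498_c0_g1), major pollen allergen Car b 1-like (DN4440_c0_g1), YLS3-like (DN14075_c0_g1) and polyol transporter 5 (DN34623_c0_g1) were higher by 2.27 to 2.77 in log2. Lower in CNCs were chlorophyll a-b binding protein 1 (DN126_c1_g1), at 114, 175 and 116 TPM against 36.0, 29.8 and 41.2 TPM, an LHCII type 1 antenna protein (DN2094_c0_g1), chemocyanin (DN13251_c0_g1), a zinc finger CCCH domain-containing protein (DN119089_c0_g1) and phosphomethylethanolamine N-methyltransferase (DN1914_c2_g3), which makes the precursor of the membrane lipid head group choline. These last 4 were lower by 2.02 to 2.54 in log2.

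Heat shock genes lay toward CNCs with 0 called in edgeR and at most 2 in each group by DESeq2. Of 23 tested small heat shock proteins, 17 lay above 0, 2 were higher and 0 lower at an unadjusted p below 0.05, and the median was 1.04 above that of all unigenes but 0.55 on TPM. Their sums overlapped, at 195 to 362 TPM in Si NPs and 346 to 451 in CNCs. HSP70, HSP90, HSP101 and DnaJ chaperones, which fold proteins, summed to 4609, 4006 and 4036 TPM in Si NPs and 9810, 5584 and 8409 TPM in CNCs. Those sums did not overlap, and of the 169 tested, 117 lay above 0, 22 were higher and 6 lower at an unadjusted p below 0.05, and the median lay 0.35 above that of all unigenes (0.34 on TPM). Heat stress transcription factors, which switch on chaperone genes, summed to 400, 356 and 361 TPM in Si NPs and 598, 496 and 649 TPM in CNCs, also without overlap. Of the 33 tested, 6 were higher and 1 lower at an unadjusted p below 0.05, and the median lay 0.55 above (0.41 on TPM). In 33.3% all CNCs libraries lay above all Si NPs libraries in TMM-scaled CPM, against 13.0% of all tested unigenes. The other way lay 0 of the 33, against 10.8% of all tested unigenes. Glutathione S-transferases, which conjugate toxins, summed to 614 to 792 TPM in Si NPs and 1097 to 1168 in CNCs (48 tested, 4 higher and 2 lower at an unadjusted p below 0.05, median 0.49 above and 0.34 on TPM). Jasmonate, ethylene and salicylate unigenes had 20 higher and 1 lower at an unadjusted p below 0.05 (121 tested, median 0.46 above and 0.37 on TPM).

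In many other groups the members lay on both sides. The median lay within 0.25 of that of all unigenes for cellulose and callose synthases (49 tested), pectin-modifying enzymes (24), cytochrome P450 enzymes (130), class III peroxidases (43), MYB factors (85), auxin (96), abscisic acid (21), LEA proteins, dehydrins and cold-regulated proteins (32), and ascorbate, superoxide dismutase, catalase and glutathione peroxidase (49), with 0 called in each by edgeR and at most 1 by DESeq2. A median near that of all unigenes does not show that members did not differ. Cellulose and callose synthases summed to 293 to 374 TPM in Si NPs and 537 to 576 in CNCs. In 22.4% of members all CNCs libraries lay above all Si NPs libraries in TMM-scaled CPM, against 13.0% of all tested unigenes. At an unadjusted p below 0.05, 5 members were higher and 0 lower. For class III peroxidases the share with all CNCs libraries above was 27.9%. The other way lay 6.98% of them, against 10.8% of all tested unigenes. Of the peroxidases, 4 were higher and 2 lower at that p, and their summed TPM overlapped between the groups. In the list with ascorbate and catalase enzymes, 10 of 49 were lower and 5 higher at that p. Reference genes such as actin and elongation factor 1-alpha had a median 0.10 above that of all unigenes, although their summed TPM was 18940 ± 540 (SD, n = 3) in CNCs against 12050 ± 336 in Si NPs. For aquaporins and silicon transporters (25 tested, 0 called) the median lay 0.22 below. The 1 tested unigene described as a silicon transporter (DN20900_c0_g1), an LSI2 match that in rice exports silicic acid from root cells, was at 0.43, 0.42 and 0.69 TPM in Si NPs and 0.25, 1.13 and 0.56 TPM in CNCs. The groups overlapped at this low level (-0.32, edgeR adjusted p = 0.943).

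The 18 unigenes that the study singled out in a table of its own were chosen on these same samples and are no independent evidence. All were tested, 13 lay below 0 and 5 above, and atpB was the 1 called. In 12 the groups overlapped in TPM and in 6 they did not, beside 28.3% without overlap among all tested unigenes. Cytochrome b-559 alpha subunit (DN52275_c0_g2), a core protein of photosystem II, was at 4.64, 11.5 and 16.8 TPM in Si NPs and 2.20, 0.65 and 1.81 TPM in CNCs, without overlap (-3.14, edgeR adjusted p = 0.0517). CAB-M9 (DN41235_c0_g2), an antenna protein, was at 55.7, 78.1 and 58.2 TPM against 28.9, 13.8 and 12.7 TPM (-2.16, edgeR adjusted p = 0.110). Both were called in the fit of 6 libraries. In contrast, the catalase CAT2 (DN51610_c0_g1) was at 9.22, 0 and 3.56 TPM in Si NPs and 37.2, 16.1 and 98.7 TPM in CNCs, with too wide a spread to pass (edgeR adjusted p = 0.423), and CAB1 (DN34697_c0_g1) ranged over 38.5 to 723 TPM in Si NPs and 32.7 to 1466 TPM in CNCs. DHAR2 (DN121132_c0_g1), a dehydroascorbate reductase, was at 0.76, 0 and 0.85 TPM in Si NPs and 3.34, 5.70 and 4.33 TPM in CNCs, without overlap (edgeR adjusted p = 0.503), and rested on 2 counts in Si NPs. The others besides the cinnamoyl CoA reductase above overlapped.

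Under drought the same particles were set against each other in libraries that share nothing with the watered ones. DS_Si NPs against DS_CNCs gave 0 called unigenes in edgeR, with 5163 at an unadjusted p below 0.05, where the watered comparison had 6216. Of the 23 unigenes called in watered leaves, 12 had the same sign under drought and 11 the opposite, and over all tested unigenes 50.7% had the same sign. Among the called ones, Lhcb1 (DN45631_c0_g1) differed by -1.68 under drought and atpB (DN45747_c0_g2) by -1.09, on the watered side, while the ferric reductase oxidase (DN24562_c1_g1) differed by 0.59, the light-induced protein (DN8291_c0_g1) by 0.86 and the glutamate receptor 2.8-like unigene (DN15733_c0_g1) by -0.55, on the other side. The difference between the watered and the droughted comparison was tested as an interaction: edgeR called 0 unigenes (5515 at an unadjusted p below 0.05, lowest adjusted p = 0.160) and DESeq2 528, in 302 of which CNCs minus Si NPs was larger in watered leaves and in 226 smaller. The watered libraries stand in the interaction too, so it is no separate evidence for the 23.

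By gene group, medians here are plain log2 differences, and those of all tested unigenes were 0.04 in watered and -0.02 in droughted leaves. Antenna proteins had a median difference of -1.21 in watered and -1.06 in droughted leaves, and photosystem subunits of -0.96 and -0.46. WRKY factors were at 0.83 and 0.30 and NAC factors at 1.08 and 0.20. PAL unigenes were at 2.43 in watered and -2.25 in droughted leaves, mixed-linkage beta-glucanases at -3.49 and 1.96, and small heat shock proteins at 1.08 and -1.59. For the beta-glucanase DN8000_c0_g1 the interaction was -5.50 (edgeR adjusted p = 0.160), and edgeR called it for no unigene, so these opposite signs are a description.

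**Figure D5:**
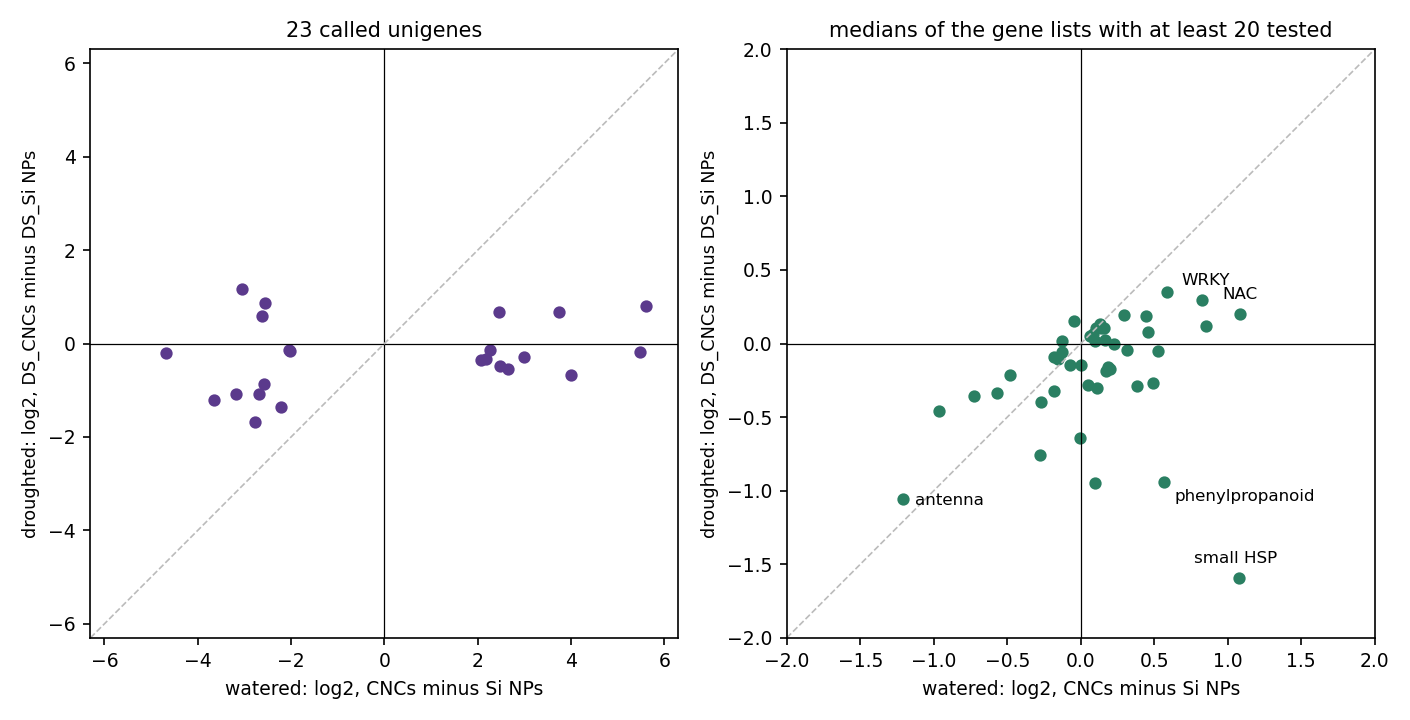
Log2 difference between the particles in watered leaves (x axis, CNCs minus Si NPs) and in droughted leaves (y axis, DS_CNCs minus DS_Si NPs), for the 23 called unigenes (left) and as medians of the gene lists with at least 20 tested unigenes (right). The dashed line marks equal differences: antenna proteins lie near it, and small heat shock proteins lie on opposite sides of 0. The called unigenes were chosen for a watered difference above 2 in size, and the part of that choice in their smaller values under drought was not tested.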

How the data were processed

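Strand-specific poly(A) libraries of tall fescue leaf RNA were sequenced, 18 in all and 3 in each of 6 groups. The authors trimmed reads with Cutadapt, assembled them with Trinity, took as unigene the longest transcript per gene and took descriptions from DIAMOND matches. Estimated counts were computed by the authors with Salmon and deposited unrounded (452055 values are not whole), and they were rounded here. The deposited TPM values also come from Salmon. The sources name a different RNA extraction reagent in the labels (Trizol) and in the methods (a plant RNA kit).

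Of 109684 unigenes, 42440 carry a description and 55979 passed edgeR's filterByExpr. edgeR 4.0.16 (R 4.3.3) fitted 1 quasi-likelihood model of 6 group means with TMM scaling, and CNCs minus Si NPs and its interaction with drought were taken as contrasts. Calls needed a log2 difference beyond 2 in either direction and p below 0.05 after Benjamini-Hochberg adjustment. Standard errors come from the same model. Every adjusted p comes from edgeR unless another tool is named. No permutation test was run, since with 3 libraries on each side an exact one cannot give less than 0.1.

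Unigenes to name were drawn from these sets: every called one, the 10 higher and 10 lower ones called only in the fit of 6 libraries that had the smallest adjusted p among those with a named product (bare locus names were skipped), at least 20 TPM in the higher group and no overlap, the 3 most abundant of each gene list, the 18 of a table in the study and silicon transporters. Not all members of the last 3 sets are named in the text. Other list members were named after their values were seen. The 50 gene lists were made by words in descriptions, and 8 smaller groups were added after the values were seen. The comparison, the lists and the rules were chosen with earlier results of these data known. Groups without counts were set to a floor of 3 counts where said, and counting intervals are exact 95% ones that cover counting error only.

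On simulated counts with all 18 libraries (52368 unigenes), the test found 14 of 48 unigenes changed by 2.5 in log2, 18 of 46 at 3, 25 of 50 at 4 and 27 of 48 at 6. Alternatives were RLE scaling, DESeq2 1.42.0, limma 3.58.1 on log2(TPM + 0.5) with at least 1 TPM in 3 libraries, only the 6 libraries, no filter or a mean of at least 5 TPM, other size thresholds, a replicate block, counts summed by description and each library left out.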

Additional observations from a re-analysis of the deposited data

How the results depend on the processing

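The number of called unigenes depended on the fit, while the direction of the 23 did not. Against 23 called (11 higher and 12 lower in CNCs), DESeq2 called 472 (229 and 243), limma on log2(TPM + 0.5) 70 (62 and 8), the fit of only the 6 libraries 222 (117 and 105), no filter on low counts 7 (1 and 6), a mean of at least 5 TPM 42 (17 and 25), a size threshold of 1 95 (16 and 79) and no size threshold 181 (18 and 163). With RLE scaling 26 were called (11 and 15). Of the 23, 22 were still called with RLE, 21 with DESeq2, 6 with limma, 20 with the 6 libraries and 7 with no filter, and none changed sign in these fits. With 1 of the 18 libraries left out, 0 to 49 unigenes were called (0 to 20 higher and 0 to 29 lower): 49 and 46 without DS_Si NPs 2 and 3, 9 and 11 without DS 1 and DS_Si NPs 1, 14 to 15 without CK 1, CK 2, DS 2, DS_CNCs 2 or DS_CNCs 3, and 0 without CK 3. In the fit of 6 libraries, 0 to 30 were called (0 to 10 higher and 0 to 20 lower), and with the same 55979 unigenes tested, an alternative chosen after seeing the data, 0 to 3 (0 to 2 and 0 to 1). Of the called unigenes, 10 share their description with other unigenes. With counts summed by description, 3 of these 10 were still called and 1 reversed, DN12790_c0_g1 (-0.33), whose description "predicted protein" is shared by 4061 unigenes, and 4 of the 7 with a description of their own were still called in that fit. The interaction with drought was 0 with edgeR under RLE scaling and without any 1 library, and 528 with DESeq2. The causes of these differences were not tested.

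Replicate numbers did not pair the samples: deviations of same-numbered libraries correlated at -0.040, -0.063 and -0.003. With the replicate block in the model 25 unigenes were called (10 and 15), 18 of the 23 among them, and 0 for the interaction.

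DN130945_c0_g1 had 1 count in Si NPs, so its size is open to counting error. On simulated counts, over unigenes of all levels, 27 of 48 log2 changes of 6 were called.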
